A study of Mus musculus with 36 samples.

Results

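The 6 p53 and apoptosis genes Mdm2, Bax, Bak1, Pmaip1, Phlda3 and Birc2 were followed through chromatin immunoprecipitation with sequencing (ChIP-seq) of aortic smooth muscle cells with and without CSE, the hydrogen sulfide-producing enzyme cystathionine gamma-lyase (gene Cth). Every peak, of any annotation, that the authors' deposited tables assign to one of these gene symbols was taken, 12 of the 13958 listed peaks. The genes were chosen because they appear in those tables, so being listed is the choice and not a result. Knockout cells were primary smooth muscle cells from mice with a whole-body CSE knockout, set against the same cell type from C57BL/6N wild-type mice. All cells of both genotypes had received 1 µM angiotensin II, a vasoconstrictor peptide, for 24 hours, so no untreated cells are compared here. H3K9ac, H3K9me3 and H3K4me3 were each immunoprecipitated in 3 knockout and 3 wild-type samples with an input library for each, which gives 36 samples. The age of the mice, and whether samples came from separate animals or were pooled, are not stated in the labels.

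The transcription factor p53 is held at a low level by the ubiquitin ligase MDM2, whose own gene p53 activates, and under stress p53 raises genes that stop the cell cycle or start cell death. In the mitochondrial route, BH3-only proteins such as NOXA (Pmaip1) disable the BCL-2 guardians, and BAX and BAK then permeabilise the outer mitochondrial membrane and release the factors that activate caspases. PHLDA3, another p53 target, competes with the kinase AKT for membrane lipids and so limits survival signalling, while cIAP1 (Birc2) is a ubiquitin ligase of the tumour necrosis factor receptor complex that restrains cell death. Loss of smooth muscle cells by apoptosis is a known feature of aortic aneurysm, the disease named in the title of the series. H3K9ac and H3K4me3 are marks of active promoters, and H3K9me3 is a mark of heterochromatin.

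Each table gives peaks the authors had already selected, at a p of 0.05 per the title of each table, with no value per sample, so no spread between replicates could be computed and the depth of each library is unknown. For H3K9ac and H3K9me3 each peak has 1 log2 mean of normalised reads per genotype, with the authors' fold change on that scale, p-value and false discovery rate (FDR). A lower mean can come from fewer cells with the mark or from less of it per cell, and these cannot be told apart in bulk samples. For H3K4me3 the authors' table gives positions only, so a listed peak has no level and no direction here. The tables stop above a p of 0.0001, with smallest values of 0.000101 for H3K9ac and 0.00011 for H3K9me3, so a gene missing from a table may have had no peak, no difference at that threshold or a p under 0.0001. Of 8 smooth muscle marker genes 6 had a listed H3K9ac peak, and of 6 markers of other cells 2 (Pdgfra and Pecam1), which does not check the identity of the cells because only selected peaks are listed.

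The 6 genes differed in which mark was listed. Mdm2, Bax, Bak1 and Pmaip1 had 1 H3K4me3 peak each and no other peak, Phlda3 had 5 H3K9ac peaks and no other, and Birc2 alone had peaks of both marks, 1 of H3K4me3 and 2 of H3K9ac. None of the 6 had a listed H3K9me3 peak. Both H3K9ac peaks of Birc2 were higher in the knockout and all 5 of Phlda3 were lower in the authors' deposited table. For comparison, 22.8% of the 8115 listed H3K9ac peaks were higher and 77.2% lower, and 61.0% of the 5374 listed H3K9me3 peaks were higher. Over all 21887 protein-coding genes of the RefSeq table, 1.83% had a listed H3K4me3 peak, 18.1% a listed H3K9ac peak and 5.52% a listed H3K9me3 peak. The members were picked from these lists, so nothing is read from their own shares.

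**Figure D1:**
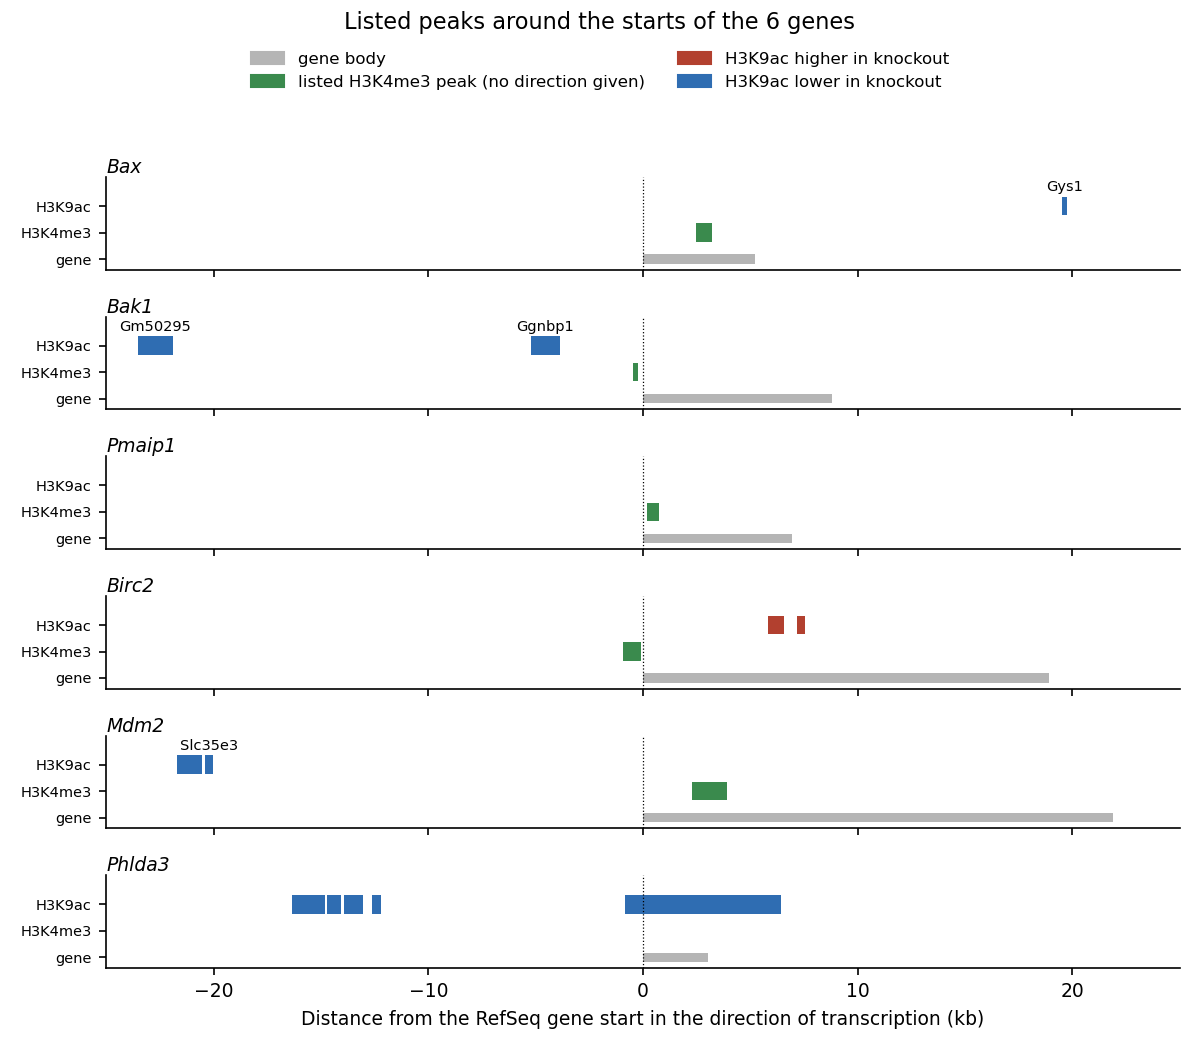
Listed peaks within 25 kb of the RefSeq start of each of the 6 genes, with distance in kb in the direction of transcription on the horizontal axis. Grey bars are gene bodies, green bars H3K4me3 peaks, red bars H3K9ac peaks higher in the knockout and blue bars H3K9ac peaks lower in the knockout, and a name above a bar is the other gene a peak is annotated to. Birc2 has both red bars, 5.80 and 7.17 kb inside the gene, and the Phlda3 bar at 0 is longer than the gene.

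At Mdm2 (ENSMUSG00000020184, chromosome 10, 117688875 to 117710758 in RefSeq GRCm38.p6), the ubiquitin ligase that degrades p53, the listed H3K4me3 peak spanned 1634 bases (117706855 to 117708488). Mdm2 runs on the minus strand, so the peak lay inside the gene, 2.27 kb past its RefSeq start. The authors annotated it as a promoter peak at 1 to 2 kb, from the start of another Mdm2 transcript 1534 bases away. It was the longest of the 5 H3K4me3 peaks of these genes, and 73.8% of the 469 listed H3K4me3 peaks were shorter. No listed H3K9ac peak was annotated to Mdm2. The nearest one lay 22.3 kb from the H3K4me3 peak, downstream of Slc35e3, and was 2.23-fold lower in the knockout in the authors' deposited table.

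Bax and Bak1 encode the paired pore-forming effectors, and their H3K4me3 peaks differed in place and size. Bax (ENSMUSG00000003873) occupies 45461695 to 45466903 of chromosome 7 and Bak1 (ENSMUSG00000057789) 27019812 to 27028627 of chromosome 17. The Bax peak spanned 751 bases on chromosome 7 (45463676 to 45464426), inside the gene and 2.48 kb past its RefSeq start on the minus strand. The authors again called it a promoter peak at 1 to 2 kb, with a distance of 1618 bases to a Bax transcript that starts farther downstream. The Bak1 peak spanned 229 bases on chromosome 17 (27028861 to 27029089) and lay 234 bases upstream of the RefSeq start of Bak1, also on the minus strand. It covered the start of the transcript the authors used, so their distance is 0. Of listed H3K4me3 peaks, 1.92% were shorter than the Bak1 peak, against a median length of 1104 bases. Both peaks had listed H3K9ac peaks of other genes nearby, in Gys1 at 16.3 kb from the Bax peak and in Ggnbp1 at 3.42 kb from the Bak1 peak. These were 3.43-fold and 1.89-fold lower in the knockout in the authors' deposited table.

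Pmaip1 (ENSMUSG00000024521), the BH3-only gene at 66458604 to 66465558, had a listed H3K4me3 peak of 519 bases on chromosome 18 (66458812 to 66459330), 208 bases past its RefSeq start on the plus strand. No H3K9ac peak was listed within 100 kb of the gene start, and the nearest, annotated to Zfp532, lay 886 kb away. Of all listed H3K4me3 peaks 98.1% were closer to a listed H3K9ac peak. The gene had 1 listed H3K9me3 peak within 100 kb, an intergenic one annotated to Gm50153 at 57.8 kb, with a log2 level of 3.78 in the knockout and 0.63 in wild type. Bak1 and Mdm2 also had 1 each within 100 kb, in introns at 68.0 and 59.8 kb, with log2 levels of 2.55 and 3.48 in the knockout and −0.45 at both in wild type. The authors' deposited table gives all 3 an FDR of 1. A wild-type value of −0.45 means almost no reads, and a listed H3K9me3 peak annotated to Casp12 has the same one.

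The 5 H3K4me3 peaks had lengths of 229 to 1634 bases. None of the 5 covered the RefSeq start of its gene, and 3 of 5 lay within 250 bases of it. Among 445 listed H3K4me3 peaks that could be matched to a RefSeq gene, 38.9% covered the gene's start and 57.3% lay within 250 bases of it. None of the 5 overlapped a listed H3K9ac peak, while 71 of the 469 H3K4me3 peaks (15.1%) did. Their distances to the nearest listed H3K9ac peak were 3.42 kb (Bak1), 5.88 kb (Birc2), 16.3 kb (Bax), 22.3 kb (Mdm2) and 886 kb (Pmaip1), against a median of 28.5 kb over the 469. With 5 peaks chosen from the list, these are descriptions of the peaks and were not tested.

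Birc2 (ENSMUSG00000057367, chromosome 9, 7818226 to 7837131) was the gene with both marks, and they did not lie in the same place. Its H3K4me3 peak spanned 871 bases on chromosome 9 (7837209 to 7838079), 78 bases upstream of the RefSeq start on the minus strand. Its H3K9ac peaks lay inside the gene, in an intron that the authors number 2 of 7. The nearer one (7830561 to 7831330), 5.80 kb past the start, had a log2 level of 5.53 in the knockout and 4.09 in wild type. The farther one (7829570 to 7829957), at 7.17 kb, had 5.15 in the knockout and 2.44 in wild type. Both knockout values thus stood above both wild-type values, as group means with no value per sample.

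On the linear scale the nearer Birc2 peak held 46.2 normalised reads per knockout library and 17.0 per wild-type library, a 2.71-fold higher value in the knockout (p 0.00385, FDR 0.0762) in the authors' deposited table. The farther peak held 35.5 reads in the knockout and 5.43 in wild type, 6.54-fold higher (p 0.000177, FDR 0.00956) in the authors' deposited table. It was the only 1 of the 7 H3K9ac peaks of these genes with an FDR under 0.05, which 16.6% of all listed H3K9ac peaks had. Its fold rests on few reads in wild type. Of the listed peaks higher in the knockout, 94.0% had a smaller fold than the farther peak and 57.1% a smaller fold than the nearer one. On chromosome 9 as a whole 80.8% of 370 listed H3K9ac peaks were lower. The next listed H3K9ac peaks were annotated to Birc3, the neighbouring gene for the related ligase cIAP2, at 77.0 and 77.6 kb upstream of Birc2. They were 3.36-fold and 2.64-fold lower in the knockout in the authors' deposited table, the opposite direction from Birc2.

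Of the promoter windows, 3 (of the 6 that RefSeq holds for these genes, GRCm38.p6, 250 bases before to 50 after the start) shared bases with a listed member peak, and they are printed because they show where each peak met the promoter. Capitals mark the bases inside the peak and lower case the bases outside it. The H3K4me3 peak of Birc2 covered 99 bases at the upstream end of the window chr9:7837008-7837307 (minus strand), and that of Bak1 17 bases at the upstream end of chr17:27028578-27028877 (minus strand). The Birc2 window belongs to a transcript that starts inside the gene, downstream of the RefSeq gene start from which the 78 bases above were counted. The H3K9ac peak of Phlda3 covered all 300 bases of chr1:135765835-135766134 (plus strand).
Birc2: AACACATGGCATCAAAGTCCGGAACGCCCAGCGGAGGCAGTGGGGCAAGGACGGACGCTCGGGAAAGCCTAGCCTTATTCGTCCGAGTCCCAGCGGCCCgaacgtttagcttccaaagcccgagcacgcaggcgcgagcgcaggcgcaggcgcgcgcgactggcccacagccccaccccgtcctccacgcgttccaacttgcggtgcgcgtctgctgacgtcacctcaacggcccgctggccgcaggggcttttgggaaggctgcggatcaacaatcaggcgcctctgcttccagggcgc
Bak1: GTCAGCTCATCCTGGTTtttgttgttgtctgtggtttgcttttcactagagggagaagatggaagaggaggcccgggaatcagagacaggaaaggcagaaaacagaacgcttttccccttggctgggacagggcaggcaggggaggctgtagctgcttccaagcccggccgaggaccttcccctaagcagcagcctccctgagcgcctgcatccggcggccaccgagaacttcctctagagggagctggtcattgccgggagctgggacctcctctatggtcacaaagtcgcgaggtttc
Phlda3: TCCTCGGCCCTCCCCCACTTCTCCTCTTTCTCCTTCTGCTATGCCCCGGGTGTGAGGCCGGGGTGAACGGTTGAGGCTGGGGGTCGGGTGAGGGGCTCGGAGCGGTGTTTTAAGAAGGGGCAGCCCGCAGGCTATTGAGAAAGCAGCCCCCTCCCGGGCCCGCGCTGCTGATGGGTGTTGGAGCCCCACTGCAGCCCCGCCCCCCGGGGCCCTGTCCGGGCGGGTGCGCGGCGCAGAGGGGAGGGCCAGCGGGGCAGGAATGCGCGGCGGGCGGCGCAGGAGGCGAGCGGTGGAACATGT

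The windows of Bax and Mdm2, and that of a second Birc2 start, shared no base with a listed peak. Pmaip1 had no window, so the 6 windows cover 5 of the genes and no Pmaip1 sequence was searched. The CpG ratio, observed over expected from base composition, was 1.01 for the Birc2 window printed above, 0.435 for Bak1 and 0.687 for Phlda3, against a median of 0.384 over 32851 windows. The Mdm2 window had the highest ratio of the members, 1.12, and 98.6% of all windows were lower. Motifs were searched on both strands, with positions counted from 1 at the window's 5′ end. GGGCGG, the core letters bound by SP1, was found in 4 of 6 member windows, including 3 matches in Phlda3 and 3 in Bax, and in 35.7% of all windows. CATG, the central letters of many p53 sites, was found in 3 of 6, against 61.1% of all windows. Its single match in Phlda3 begins at position 296, so the printed window ends before a full p53 half-site around it could be read. A complete p53 half-site was found in 3 of 6 windows, those of Bax (position 50), Mdm2 (position 65) and the second Birc2 start (position 261), against 8.36% of all windows, and none of these overlapped a CATG match. CCAAT was found in 2 of 6 (37.4% of all windows) and TATAAA in 0 of 6 (13.6%). A match is a run of letters only, and binding of p53 was not measured.

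Phlda3 (ENSMUSG00000041801, chromosome 1, 135766085 to 135769134), the AKT antagonist, carried lower H3K9ac in the knockout at all 5 of its listed peaks. The peak over the gene itself spanned 7298 bases on chromosome 1 (135765233 to 135772530), longer than the gene of 3050 bases. Its log2 level was 11.17 in the knockout and 11.94 in wild type, or 2304 normalised reads per knockout library and 3929 per wild-type library. This is a 1.71-fold lower value in the knockout (log2 fold change −0.77, p 0.0491, FDR 0.322) in the authors' deposited table. It was among the strongest peaks listed: 5 of the 8115 had a higher level and 18 were longer. It was also among the last to be selected, with 60 listed peaks at a larger p.

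The other 4 Phlda3 peaks formed a run of 4143 bases (135749732 to 135753874), 12.2 to 14.8 kb upstream of the RefSeq start. From the farthest to the nearest, the first had a log2 level of 5.94 in the knockout and 6.70 in wild type. The second had 5.02 in the knockout and 5.93 in wild type, and the third 5.63 in the knockout and 6.47 in wild type. The fourth had 4.30 in the knockout and 5.29 in wild type. All were thus lower in the knockout, by 1.69-fold, 1.89-fold, 1.79-fold and 1.97-fold in the authors' deposited table. Their p-values ran from 0.0114 to 0.0473 and their FDRs from 0.146 to 0.315 in the authors' deposited table, so none of the 5 Phlda3 peaks had an FDR under 0.05.

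The upstream run is tied to Phlda3 by nearness of a start site only. Of its 4 peaks, 3 overlap the RefSeq position of Csrp1 (chromosome 1, 135720063 to 135752229), a gene for a cysteine- and glycine-rich LIM protein of smooth muscle. Of the third peak, 58 bases, or 6.57%, lay inside Csrp1, and the fourth lay 1235 bases past its end. The authors' annotation gives the first 3 as 3′ UTR and the fourth as distal intergenic. The 5 fold changes were alike, from −0.98 to −0.76 on the log2 scale, although the levels differed widely. Among all listed lower peaks the median was −1.13, and 12.1% of them had a smaller change than the Phlda3 gene peak.

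**Figure D2:**
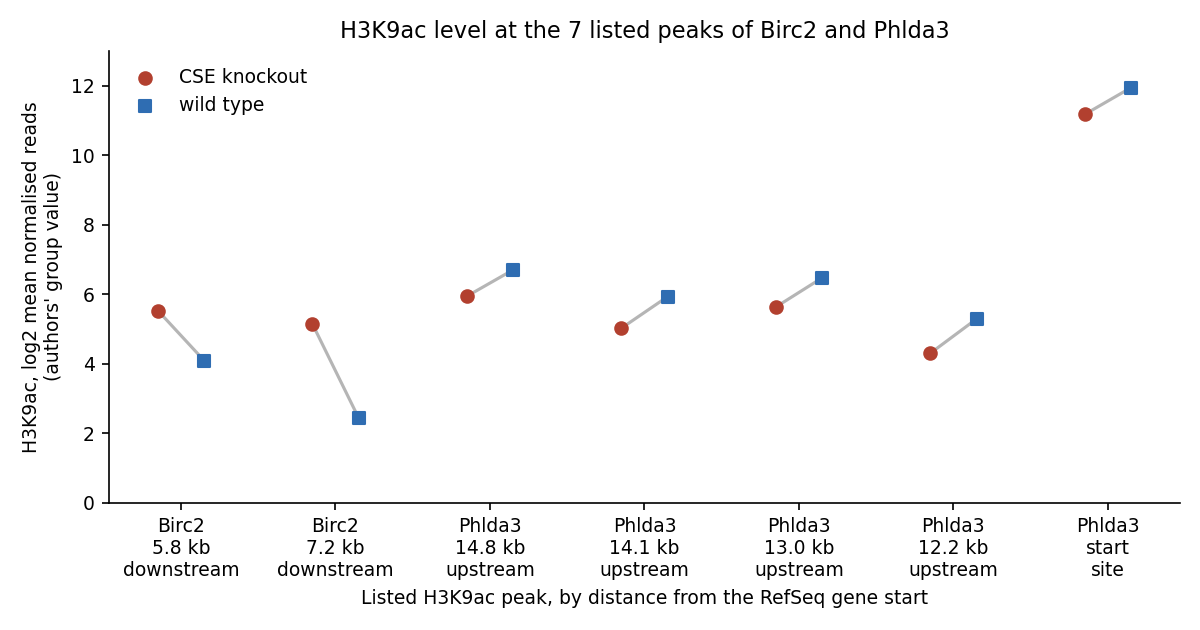
H3K9ac level, as the authors' log2 mean of normalised reads, at each of the 7 listed peaks of Birc2 and Phlda3, with knockout as red circles at the left of each pair and wild type as blue squares. Distances from the RefSeq gene start are given under each pair, and there are no error bars because no value per sample was used. In both Birc2 pairs the knockout is above wild type (5.53 in the knockout and 4.09 in wild type, and 5.15 in the knockout and 2.44 in wild type), and in all 5 Phlda3 pairs it is below.

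**Figure D3:**
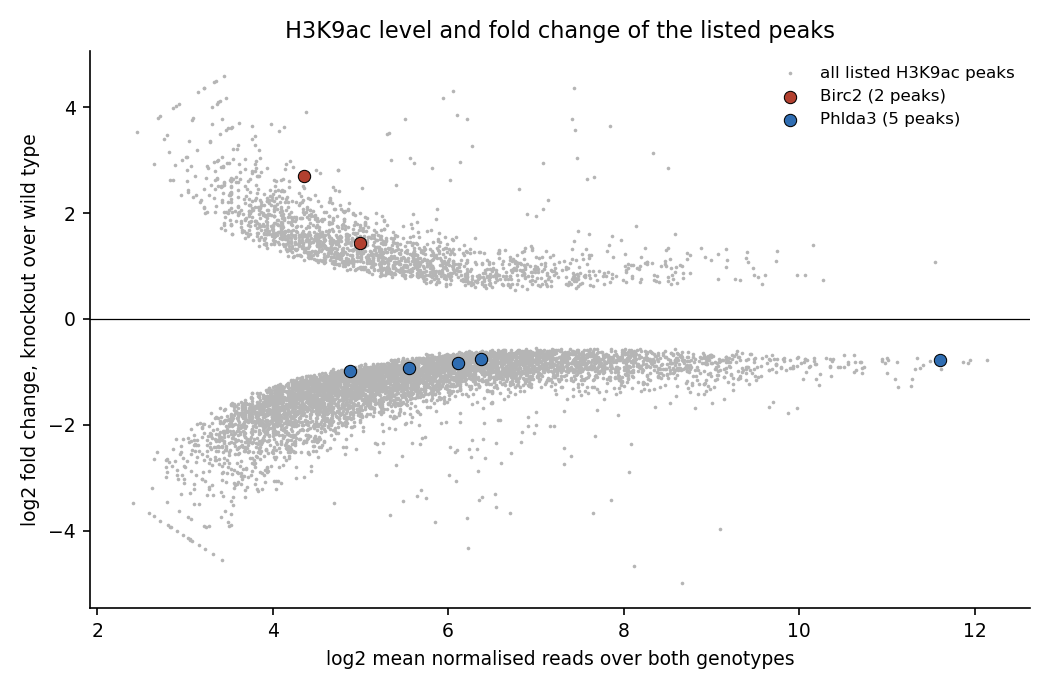
Log2 fold change, knockout over wild type, against the log2 mean level over both genotypes for the 8115 listed H3K9ac peaks (grey), with the 2 Birc2 peaks in red and the 5 Phlda3 peaks in blue. The Phlda3 gene peak, at a level of 11.6, is near the right end, and the farther Birc2 peak has a change of 2.71.

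The surroundings of the 6 genes were mostly lower in H3K9ac, as was the whole list. Within 100 kb of the RefSeq starts there were 31 listed H3K9ac peaks, 2 higher and 29 lower. These counts include the 7 peaks of Birc2 and Phlda3 already described, and both higher ones were the Birc2 peaks. Around Phlda3 all 14 were lower, of which 5 were its own peaks. The other 9 were annotated to other genes, including 3 to Nav1, 3 to Tnnt2 (cardiac troponin T) and 2 to Gm28883. The start-site peak of Tnnt2, at 81.6 kb, was 2.87-fold lower (FDR 0.0286) per the authors' deposited table. Around Bax 5 of 5 were lower, around Bak1 5 of 5 and around Mdm2 3 of 3. On their chromosomes the share of lower peaks was 86.4% (chromosome 1), 91.3% (7), 76.7% (17) and 89.4% (10). Pmaip1 had 0 within 100 kb, on a chromosome where 63.2% of 239 listed H3K9ac peaks were higher. Neighbouring peaks are not independent, and their part in the Phlda3 values was not tested.

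**Figure D4:**
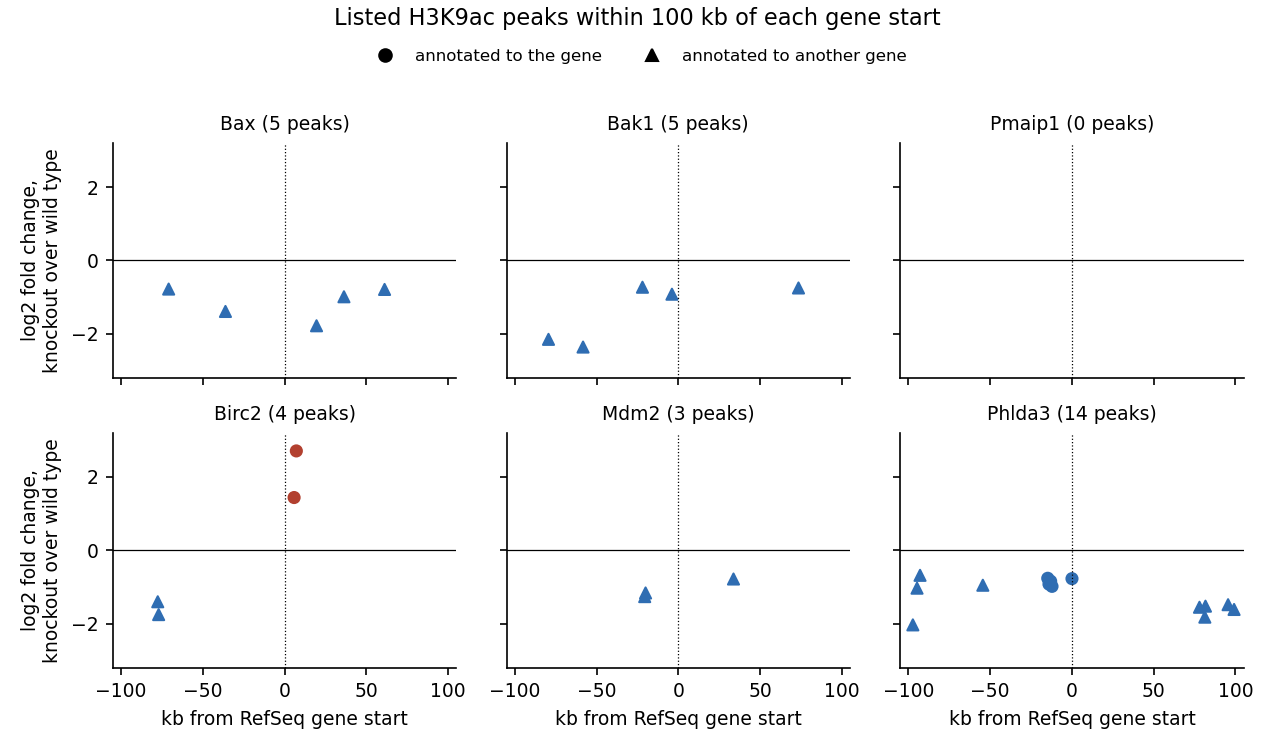
Log2 fold change of each listed H3K9ac peak within 100 kb of the 6 gene starts, by distance in kb in the direction of transcription. Circles are peaks annotated to the gene and triangles peaks annotated to another gene, with values above 0 in red and below 0 in blue. The 2 Birc2 circles are the points above 0, and the Pmaip1 panel has 0 peaks.

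Other genes of the same pathways were taken from textbook lists of 150 genes that leave out the 6. Of these, 42 (28%) had a listed H3K9ac peak, against 18.1% of protein-coding genes, and 30 had lower peaks only, 11 higher peaks only and 1 both. By peaks, 47 of 66 were lower (71.2%, against 77.2% of all listed peaks), with a median log2 fold change of −0.84 against −0.98. Of the 66 peaks, 14 had an FDR under 0.05 per the authors' deposited table, which 16.6% of all listed H3K9ac peaks had. H3K9me3 peaks were listed for 4 of the 150 genes (2.67%, against 5.52%) and H3K4me3 peaks for 4 (2.67%, against 1.83%), the p53 targets Btg2 and Tigar and the p53 regulators Atr and Sirt1.

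Among 39 other p53 target genes 14 were listed for H3K9ac (35.9%, against 18.1% of protein-coding genes), 11 with lower peaks only and 2 with higher peaks only. Of their 19 peaks, 16 were lower (84.2%, against 77.2% of all listed peaks). Fas, the death receptor, was 4.72-fold higher in its first intron (FDR 0.0344), the only peak of this list with an FDR under 0.05 per the authors' deposited table. Lower peaks included Plk2 (a kinase, up to 3.32-fold) and Zmat3 (an RNA-binding protein, up to 3.23-fold), each with an FDR over 0.05 per the authors' deposited table. Of 30 genes for p53, its relatives and its regulators, 10 were listed (33.3%), 6 lower and 4 higher, and 75.0% of their 16 peaks were lower. Smyd2, a methyltransferase that acts on p53, had 6 peaks, all lower by 2.0-fold to 4.92-fold, 2 of them with an FDR under 0.05 per the authors' deposited table. Trp53bp1, a DNA break protein, was 20.5-fold higher at an exon (FDR 0.0115) per the authors' deposited table. Its log2 levels were 4.15 in the knockout and −0.21 in wild type, so this fold rests on very few reads in wild type. Kmt5a, another methyltransferase of p53, was 3.03-fold lower near its start (FDR 0.0149) per the authors' deposited table. Mdm4, the partner of Mdm2, was 1.87-fold lower (FDR 0.0854) and Trp63, a p53 relative, 2.51-fold higher at an intron (FDR 0.0160) per the authors' deposited table.

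The BCL-2 family beyond Bax, Bak1 and Pmaip1 had 7 of 24 genes listed for H3K9ac (29.2%, against 18.1% of protein-coding genes), 6 lower and 1 higher. Of its 12 peaks, 83.3% were lower, against 77.2% of all listed peaks. An FDR under 0.05 was given to 0 of the 12 per the authors' deposited table (p under 0.05 for all 12, as the table requires). The guardians Bcl2 (1.72-fold at its start) and Mcl1 (up to 1.72-fold) were lower, as were the BH3-only genes Bbc3 (up to 3.32-fold), Bik (1.80-fold) and Bid (1.68-fold), while Bok, an effector related to Bax, was 2.11-fold higher at its start in the authors' deposited table. Beside Birc2, 2 of 13 inhibitors of apoptosis and their antagonists were listed for H3K9ac, Birc3 and Xiap (15.4%, against 18.1% of protein-coding genes). Their 3 peaks were all distal intergenic and lower in the authors' deposited table. Those annotated to Birc3 lay at −40982 and −41528 bases from its start, and that of Xiap (1.78-fold) at −25256 bases.

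Of 36 genes for death receptors, adaptors and caspases 8 were listed for H3K9ac (22.2%, against 18.1% of protein-coding genes), 5 lower and 3 higher. Among their 13 peaks, 9, 4 of them of the gene Tnfrsf1b, had an FDR under 0.05 per the authors' deposited table (16.6% of all listed H3K9ac peaks). By peaks 8 of 13 were higher, with a median log2 fold change of 1.06, and 6 of the 8 belong to Tnfrsf1b, the second tumour necrosis factor receptor. Its 6 peaks were 1.93-fold to 3.89-fold higher per the authors' deposited table, on chromosome 4, where 62.8% of 231 listed H3K9ac peaks were higher. An intergenic peak annotated to Tnfrsf21, death receptor 6, at −40380 bases from its start, was 3.48-fold higher (FDR 0.0150) per the authors' deposited table. An intergenic peak annotated to Cyld, a deubiquitinase of the receptor complex, at 18564 bases, was 2.75-fold lower (FDR 0.0153) per the same source. Cflar, an inhibitor of caspase-8, was 2.07-fold lower at an intron (FDR 0.0214) and Tnfrsf1a, the first receptor, 2.13-fold lower near its start (FDR 0.0395) per the authors' deposited table. The AKT genes and relatives of Phlda3 had 5 of 12 listed (41.7%), 3 lower and 2 higher. Of their 9 peaks, 66.7% were lower, against 77.2% of all listed peaks, and 0 had an FDR under 0.05 per the authors' deposited table. Akt1, the kinase that Phlda3 opposes, was lower at 4 peaks by 1.74-fold to 3.34-fold in the authors' deposited table. Phlda1 (2.99-fold) and Pik3cb (1.62-fold) were also lower there. In the other direction, Pik3ca was higher at 2 intron peaks (3.43-fold and 4.14-fold) and Pik3r1 at its start (1.73-fold) in the same source.

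**Figure D5:**
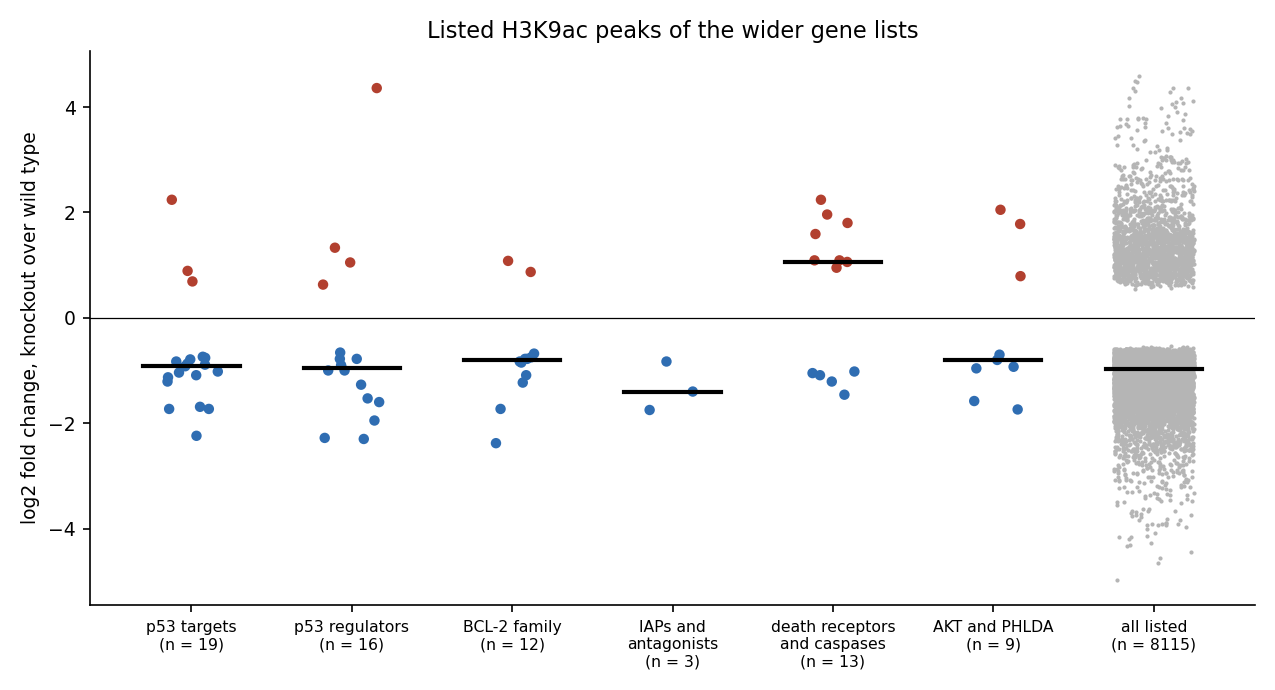
Log2 fold change, knockout over wild type, of each listed H3K9ac peak of 6 pathway gene lists and, at the right in grey, of all 8115 listed peaks. Black bars are medians, and a gene in 2 lists is drawn in both. The medians lie below 0 except for death receptors and caspases, at 1.06.

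The pathway terms in the deposited tables gave a list not written for these genes. Under "p53 signaling pathway" the H3K9ac table held 24 genes, none of the 6, with 19 lower, 4 higher and 1 both, and 30 of 35 peaks lower (85.7%, against 77.2% overall). The H3K4me3 table held 5 such genes, Mdm2, Bax and Pmaip1 with Atr and Cdk6, a cell cycle kinase. Under "Apoptosis" the H3K9ac table held 42 genes, of which 32 were lower, 9 higher (Birc2 among them) and 1 both. Of their 68 peaks, 56 were lower (82.4%, against 77.2% overall). The H3K4me3 table held 6, Bax, Bak1, Birc2 and Pmaip1 with Itpr2, a calcium channel, and Lmna, a nuclear lamin. The H3K9me3 table held 2 p53 pathway genes, Adgrb1 and Rprm, and 4 apoptosis genes, all higher in the authors' deposited table, as were 61.0% of all listed H3K9me3 peaks. These terms were looked up after the members' values had been seen.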

How the data were processed

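Values come from the authors' 3 deposited tables, 1 for each mark, with 1 row per peak selected by the authors and annotated to a gene. Levels and fold changes are on a log2 scale, per the file headers, as the authors' means of normalised reads per genotype. The p-value and FDR of each peak are the authors' own, deposited beside them. Per the submitters' processing notes, CASAVA 1.4 and the build mm9 were used, while aligner, peak caller, normalisation and differential test are not stated. The tables' gene coordinates overlapped RefSeq GRCm38.p6 positions for 99.6% or more of matched symbols in each table, and 87.6% of H3K4me3 peaks lay at promoters of these genes, so coordinates are taken as GRCm38.

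The planned count tests could not be run, since values per sample were not analysed here, and no test across genes was made. Members were found by symbol, and distances were measured from RefSeq gene ends. Peak positions are as deposited, and lengths are end minus start plus 1. The deposited width of H3K9ac and H3K9me3 peaks is 1 base more, so their starts or ends, and lengths and overlaps from them, may be off by 1 base. The wider lists matched 150 RefSeq genes, through synonyms where needed, and 1 symbol was not matched. The values of 1 listed gene are not reported here. Named genes of a list are the 6 of smallest authors' p per mark, in addition to the members and peaks within 100 kb; pathway terms were chosen after values were seen. The members and lists were chosen with earlier results of these data known. Overlap and motif functions were tested on simulated data. Computation used Python 3.11.15, numpy 2.4.6, pandas 2.3.3 and matplotlib 3.10.9. Alternatives tried were stricter p, FDR, promoter peaks only, start-site distance, gene-body distance and overlap rules.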

Additional observations from a re-analysis of the deposited data

How the results depend on the processing

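The fold changes of the 7 H3K9ac member peaks moved by at most 0.01 on the log2 scale when taken as the difference of the authors' group values. The count of H3K9ac member peaks, 7, was 1 with promoter peaks only or a start site within 1 kb, and 4 within 10 kb of a gene body whatever the annotated gene, because the upstream Phlda3 peaks lie farther away and a Ggnbp1 peak comes in. The 5 H3K4me3 peaks were 3 with a start site within 1 kb, and 5 under the other definitions. H3K9me3 stayed at 0 member peaks and the overlap of member H3K4me3 with H3K9ac peaks at 0 under each alternative run.

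Of the wider lists, genes with higher H3K9ac only numbered 11, or 8 at p under 0.01, 5 at FDR under 0.05 and 6 with promoter peaks. Genes with lower H3K9ac only numbered 30, or 14, 5 and 15 under the same settings, and the gene with both, 1, became 0. The balance of higher and lower genes therefore depended on the threshold. The shares over all listed peaks are not given at these settings, so nothing about the lists is read from this change. For H3K9me3, 2 higher genes became 1 at p under 0.01 and 0 with promoter peaks, and 2 lower genes became 0 under both. No paired analysis was possible because the tables give 1 value per genotype, and leaving out replicates was not run for the same reason.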
